A study of Mus musculus with 4 samples.

Results

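The Notch pathway was examined in the genome-wide binding of NFIC, a transcription factor of the nuclear factor I family, in the pancreas of wild-type mice. The genes were the 4 receptors *Notch1*, *Notch2*, *Notch3* and *Notch4*, the ligands *Jag1*, *Jag2* and *Dll1*, the targets *Hes1* and *Hey1*, and the coactivator *Maml2*. Their peaks were the entries of the deposited peak list whose gene name is 1 of these 10 genes, which gave 11 of 15824 peaks. The other pathway genes, 63 in number, were taken from a list by role. Chromatin from pancreas was precipitated with an anti-NFIC antibody in 3 ChIP libraries, and 1 library of input DNA was sequenced beside them. The mice were 8 to 12 weeks old by the deposited description, and the labels give their strain as Mixed. All libraries came from whole wild-type pancreas, which holds acinar, ductal, endocrine and other cells, so the cells that contribute to a peak cannot be told apart. The authors deposited a single merged list on mm10, with no value for a single library. No spread between replicates and no test can therefore be given, and the depth behind each peak is unknown.

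In the Notch pathway, ligands of the Jagged and Delta-like families on a cell bind Notch receptors on its neighbour. The receptor is then cut by ADAM proteases and by gamma-secretase, and its intracellular domain enters the nucleus, where it joins the DNA-binding protein RBPJ and coactivators of the Mastermind family. Without it, RBPJ is held with corepressors. The best known targets code for the HES and HEY proteins, bHLH repressors that bind DNA themselves. In the developing pancreas, Notch and HES1 are known to hold progenitors back from differentiation. In acinar cells RBPJL, a paralog of RBPJ that does not bind Notch, takes its place in the PTF1 complex, and *Hes1* is known to be reactivated when acinar cells lose their identity.

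NFIC peaks were assigned to both target genes, to 3 of 4 receptors and to 1 of 3 ligands. *Hes1* had 5 peaks, *Jag1* had 2, and *Notch1*, *Notch2*, *Notch3* and *Hey1* had 1 each. No peak was assigned to *Notch4*, *Jag2*, *Dll1* or *Maml2*. The 6 genes with a peak are 60% of the 10, while 37.2% of the 21000 protein-coding genes in RefSeq had at least 1 peak. A peak in the promoter, taken as -1000 bp to the transcription start site (TSS), was present at *Hey1* and *Notch2*, 2 of 10 genes, beside 10.7% of all protein-coding genes. *Hes1* was the only one of the 10 genes with 4 or more peaks, a number reached by 3.17% of all genes. As many as 5 peaks were assigned to 1.72% of all genes. With peaks given to the nearest TSS of any RefSeq transcript, non-coding ones included, *Hes1* had 3 peaks and none of the 10 genes had 4.

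The peak score is a value that the authors' pipeline gave each peak, on a scale that the sources used here do not name, and is read only as a rank within the list. Scores of the 11 peaks ran from 3.98 at *Jag1* to 23.5 at *Hey1*, with a median of 9.56. The median over all peaks was 6.57 and the upper quartile 9.16. Of the 11 peaks, 9 lay at or above the median of the list and 6 at or above its upper quartile. The 3 highest belonged to the target genes, *Hey1* with 23.5 and *Hes1* with 22.1 and 17.3, whereas no peak of a receptor or ligand exceeded 10.6. Within 10 kb of the TSS lay 8 of the 11 peaks, compared with 49.1% of all peaks. By class, 5 of the 11 were intergenic (30.6% of all peaks), 2 intronic (40.8%), 2 in promoters (20.7%) and 2 in exons (3.20%).

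**Figure D1:**
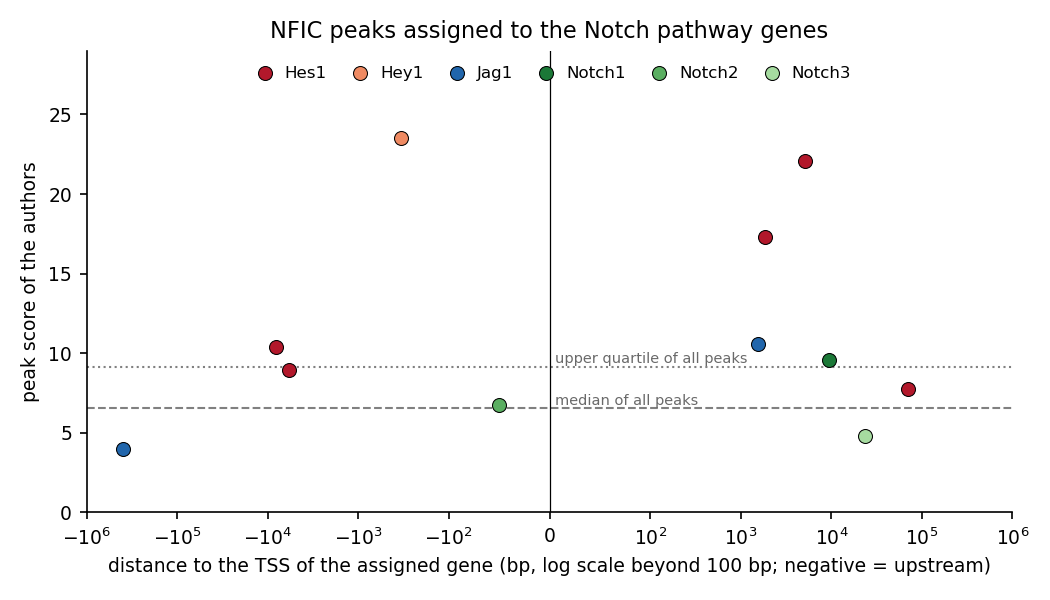
Peak score against distance to the TSS for the 11 NFIC peaks assigned to the Notch pathway genes (distance in bp, linear within 100 bp and on a log scale beyond, negative upstream; score on the authors' scale; each point is 1 peak of the merged list, colours are genes; dashed line, median of all 15824 peaks; dotted line, upper quartile). The *Hey1* promoter peak at 23.5 and the *Hes1* peaks at 22.1 and 17.3 stand above the peaks of receptors and ligands, the highest of which is 10.6.

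Motifs were searched on both strands in 200 bp centred on each peak. The NFI full site was taken as TGGC and GCCA separated by 5 bases, with at most 1 mismatch over the 8 fixed bases, and the NFI single arm as TTGGCA, which can overlap the full site. RBPJ was searched as TGGGAA, the SP motif as GGGCGG, whose copies can overlap each other, and the site of HES and HEY proteins as the palindrome CACGTG, with CACGAG accepted as a variant of it and CACGCG as another. The full site was present in 5 of the 11 windows, *Hey1*, 2 at *Hes1*, *Notch1* and the distal peak of *Jag1*, and in 51.8% of all peaks. With no mismatch allowed, it was present in 1 window and in 13.4% of all peaks. RBPJ was present in 1 window, that of *Hey1*, and in 20.9% of all peaks. In windows of 400 bp it was present at 4 of the 11 peaks and at 35.9% of all peaks. The single arm was present in 6 windows (33.7% of all peaks), the SP motif in 5 (21.1%) and the HES and HEY site in 4 (13.5%). The windows were rich in GC, with a median of 61% against 54% over all peaks and a range from 38% at the distal *Jag1* peak to 81.5% at *Hes1*. SP and HES and HEY sites consist largely of G and C. Over the 1446 peaks of the list with at least 71% GC, the SP motif was present in 81.2% and the HES and HEY site in 33.1%. The E-box CAGNTG, bound by bHLH proteins such as PTF1A, was found in 2 of the 11 windows and in 53.9% of all peaks. The NR5A2 motif AAGGTCA was in none of the 11 windows and in 4.77% of all peaks. Nor did any of them hold the GATA motif AGATAA, present in 8.76% of all peaks, the FOX motif TGTTTAC, present in 3.99%, or the AP-1 motif TGANTCA, present in 5.26%.

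The receptors are single-pass membrane proteins that act as transcription factors once cleaved. *Notch1* (chr2:26457902-26503822, minus strand) had a peak at chr2:26494220-26494392, in intron 2 of 33, 9516 bp downstream of the TSS. Its score was 9.56, and 3496 peaks of the list scored higher. The peak lay on a repeat that the annotation names as a SINE of the B4 family, B4A. The window held a full site with 1 mismatch at chr2:26494293-26494305 and 2 single arms, of which the one at chr2:26494292-26494297 overlaps the full site. The sequence is shown because it was the only window of a receptor that held a full site. It is the forward strand of the RefSeq copy of GRCm38, the assembly of mm10, with the full site and the single arms in capitals.
Notch1 intron 2, chr2:26494207-26494406: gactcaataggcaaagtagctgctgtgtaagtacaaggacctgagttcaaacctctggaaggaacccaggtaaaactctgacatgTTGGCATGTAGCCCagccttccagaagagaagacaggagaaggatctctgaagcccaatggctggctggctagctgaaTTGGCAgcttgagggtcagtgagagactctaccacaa

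*Notch2* (chr3:98013538-98150367, plus strand) had a promoter peak at chr3:98013402-98013574, centred 50 bp upstream of the TSS. Its score of 6.77 was close to the median of the list, and 7286 peaks scored higher. The window was 76% GC and held 31 CpG dinucleotides, beside a median of 4 over all peaks. It held neither a full site nor a single arm, but 4 SP motifs and 1 CACGCG at chr3:98013496-98013501. The part of the window upstream of the TSS, 149 bases with the 2 SP motifs that lie there in capitals, is shown as the promoter without the letters of NFI.
Notch2 promoter, chr3:98013389-98013537: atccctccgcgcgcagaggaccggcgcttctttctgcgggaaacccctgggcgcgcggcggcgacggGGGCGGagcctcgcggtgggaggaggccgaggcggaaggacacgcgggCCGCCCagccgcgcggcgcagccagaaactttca

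*Notch3* (chr17:32120820-32166896, minus strand) had its peak at chr17:32143288-32143460 in coding exon 24 of 33, 23478 bp from the TSS by the authors' annotation and 23516 bp by the RefSeq copy. The score was 4.78, below the median of the list, with 12085 peaks higher. It was the only one of the 11 windows that held none of the motifs searched. For *Notch4* (chr17:34564286-34588543, plus strand), the receptor best known from endothelium, the nearest peak of the list lay 77084 bp from the TSS and was assigned to *Fkbpl*. Within 150 kb of either end of *Notch4* it was the only peak, with a score of 5.98.

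The neighbourhoods of the receptors held more peaks than carry their names. Within 150 kb of the ends of *Notch1* lay 12 peaks, and 11 of them were assigned to 9 other genes. Around *Notch3* lay 9 peaks, of which 8 were assigned to 5 other genes, and the highest, 12.1, belonged to *Ephx3*. A listed peak carries at most 1 gene name, and the TSS of that gene was not always the nearest in the RefSeq copy. A peak near a gene can therefore carry the name of another gene.

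Among the ligands, transmembrane proteins that present the signal, only *Jag1* had a peak. *Jag1* (chr2:137081451-137116520, minus strand) had a peak at chr2:137114902-137115074 in intron 2 of 25, 1532 bp downstream of the TSS, with a score of 10.6 and 2698 peaks higher. Its window held the single arm at chr2:137115012-137115017 and 2 SP motifs. The other peak assigned to *Jag1*, at chr2:137510423-137510595, lay 393989 bp upstream in an intergenic region. Its score of 3.98 was the lowest of the 11, with 14504 peaks higher, although the window held a full site with 1 mismatch. Of the 2 peaks of *Jag1*, the one with the full site was thus the one with the lower score. The intronic window is shown with the single arm in capitals.
Jag1 intron 2, chr2:137114889-137115088: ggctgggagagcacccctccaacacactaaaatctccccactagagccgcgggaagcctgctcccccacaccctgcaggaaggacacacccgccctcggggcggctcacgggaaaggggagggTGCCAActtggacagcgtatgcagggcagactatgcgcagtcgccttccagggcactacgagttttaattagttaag

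*Jag2* (chr12:112907803-112929812, minus strand) had no assigned peak, yet 9 peaks lay within 150 kb of its ends, all assigned to other genes. The nearest, 11833 bp upstream of the *Jag2* TSS with a score of 5.78, was assigned to *Nudt14*. The highest, 17.3, was a promoter peak of *Brf1*. Around *Dll1* (chr17:15367354-15376932, minus strand) lay 2 peaks, of 17.3 and 4.78, assigned to the non-coding *Gm5091* and to *Fam120b*. The nearer of them was 53190 bp from the TSS of *Dll1*.

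*Maml2* codes for a Mastermind protein, the coactivator that completes the complex of RBPJ and the Notch intracellular domain. No peak carried its name, but a peak at chr9:13296647-13296819 lay close to its start. The annotation assigned this peak to *Ccdc82*, whose TSS is 49777 bp away, and classed it as intergenic. The distance from the peak was 1225 bp upstream for the TSS of the transcript NM_001013813 and 172 bp downstream for that of the predicted transcript XM_030244397. For the shorter transcript NM_173776, whose TSS lies at position 13662460 of chromosome 9, the peak lay at -365727 bp. Assigned by the RefSeq copy, the peak therefore belonged to *Maml2*, and it was the only one within 150 kb of this gene of 412973 bp. Its score of 4.38 was below the median of the list, and its window held no full site.

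*Hey1* and *Hes1* code for bHLH repressors and are the targets by which Notch signalling is most often read. *Hey1* (chr3:8663359-8667038, minus strand) had a single peak at chr3:8667292-8667464, 340 bp upstream of the TSS. Its score of 23.5 was exceeded by 120 of the 15824 peaks, or 0.758%. The window was 81% GC with 32 CpG dinucleotides. It held an exact NFI full site at chr3:8667366-8667378, 6 bp from the centre of the peak, and a second site with 1 mismatch at chr3:8667445-8667457. Between them lay the letters of RBPJ at chr3:8667426-8667431, also as the longer GTGGGAA, and CACGCG at chr3:8667410-8667415. GTGGGAA was present in 5.38% of all peaks. The *Hey1* window was the only one of the 11 with an exact full site or GTGGGAA.

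*Hes1* (chr16:30065357-30067796, plus strand) spans 2440 bp, and its 5 peaks lay within or around this short gene rather than in its promoter. Upstream, the peak at chr16:30057088-30057260, -8183 bp from the TSS, scored 10.4, and that at chr16:30059462-30059634, -5809 bp from it, scored 8.96. The peak at chr16:30067117-30067289 lay in the coding part of exon 4 of 4, 1846 bp downstream of the TSS, and scored 17.3, with 533 peaks higher. The highest peak, at chr16:30070344-30070516, lay 5073 bp downstream of the TSS and past the end of the gene, on a CpG island. It scored 22.1, and 166 peaks were higher. A distal peak at chr16:30134857-30135029, 69586 bp downstream, scored 7.77 and had the highest focus ratio of the 11, 0.8. The focus ratio is the fraction of a peak's tags that the authors' pipeline found at their proper place around the centre, and its median over the list was 0.684. All 5 peaks of *Hes1* scored above the median of the list, and 3 above its upper quartile.

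A full site was present in 2 of the 5 windows of *Hes1*, each with 1 mismatch, at chr16:30059522-30059534 and at chr16:30070386-30070398. The other 3 windows, at -8183, 1846 and 69586 bp, held a single arm each. The window of the highest peak was 81.5% GC with 30 CpG dinucleotides, and held 6 SP motifs and 1 CACGAG. That of the exonic peak was 71.5% GC and held CACGCG at chr16:30067114-30067119. The letters TGGGAA were in none of the 5 windows. The window of the exonic peak is shown, as the peak that overlaps the coding sequence of the gene, with the single arm in capitals.
Hes1 exon 4, chr16:30067104-30067303: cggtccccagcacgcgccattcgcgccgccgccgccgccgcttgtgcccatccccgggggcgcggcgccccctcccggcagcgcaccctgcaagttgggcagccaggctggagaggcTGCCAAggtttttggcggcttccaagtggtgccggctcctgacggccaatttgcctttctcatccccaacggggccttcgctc

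**Figure D2:**
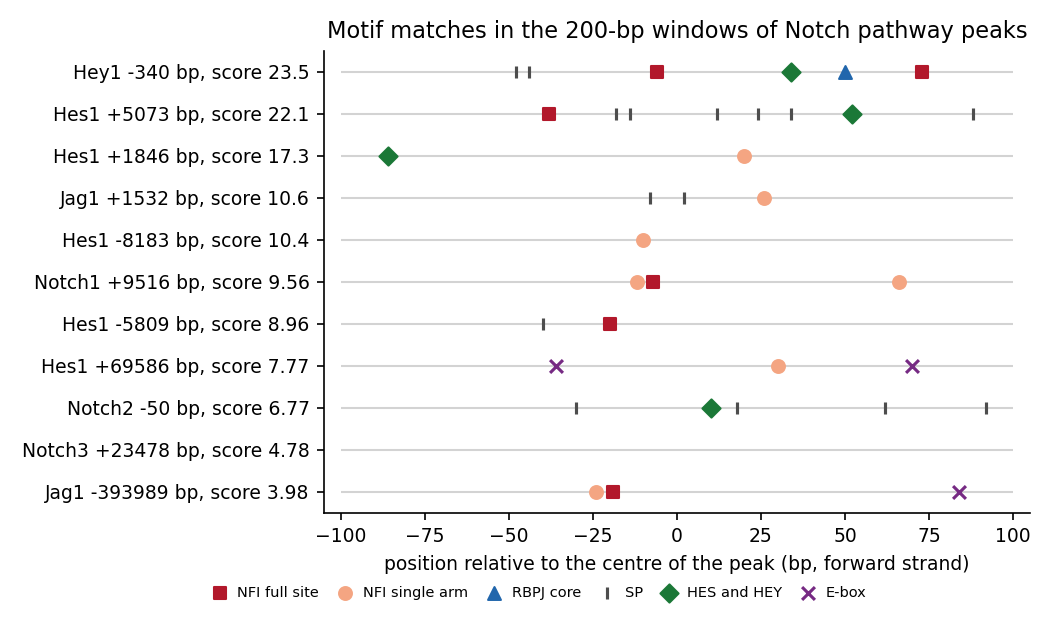
Motif matches in the 200-bp windows of the 11 NFIC peaks assigned to the Notch pathway genes, by distance from the centre of the peak in bp. Each row is 1 peak, named by gene and distance to the TSS, and each mark is 1 match. *Hey1* alone holds 2 NFI full sites and the RBPJ letters, the highest *Hes1* peak holds 6 SP motifs, and the *Notch3* row is empty.

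The same was seen at *Hes1*. Within 150 kb of its ends lay 14 peaks, of which 9 were assigned to 4 other genes. The highest of these scored 23.5 and lay at -56213 bp from the *Hes1* TSS, in intron 1 of 2 of the non-coding gene *4632428C04Rik*. Next came a peak of 21.3 at 122847 bp downstream, assigned to *Cpn2*, and a peak of 12.5 at -149784 bp, assigned to the non-coding *Gm1968*. The non-coding *9030404E10Rik* took the peaks at -17633 bp and -14455 bp, with scores of 5.78 and 7.17. Of the 14 peaks, 6 held a full site. When each peak was given to the nearest TSS of a protein-coding gene, 11 peaks fell to *Hes1* in a territory of 344 kb, or 3.20 peaks per 100 kb. The density was 0.581 over the territories of all protein-coding genes.

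**Figure D3:**
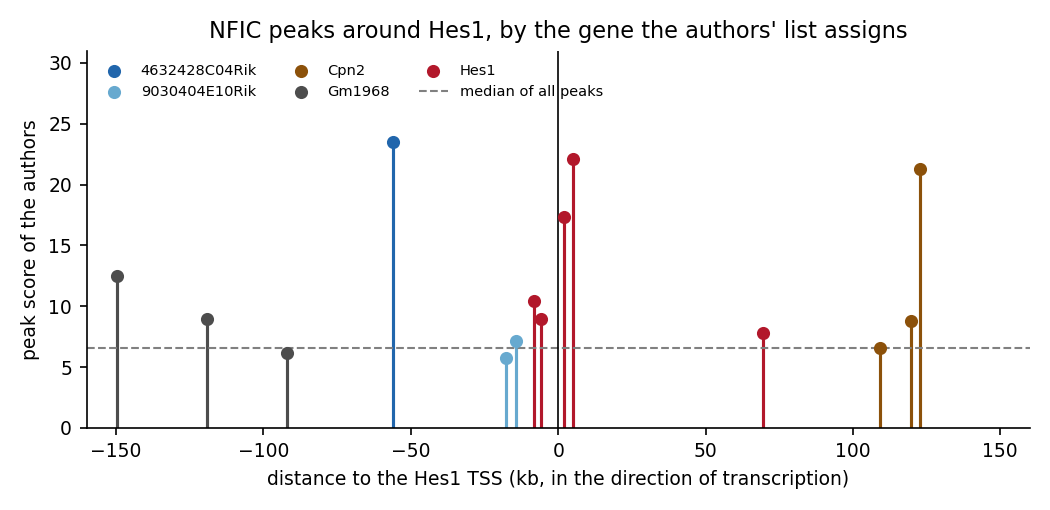
NFIC peaks within 150 kb of *Hes1*, by distance to its TSS in kb and by peak score on the authors' scale. Points are the 14 peaks of the merged list, coloured by the gene to which the authors assigned them, 5 to *Hes1* and 9 to other genes, and the dashed line is the median of all peaks. Peaks of 22.1 and 23.5 lie on either side of the gene.

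Over the territories of all 10 genes lay 21 peaks, 0.967 per 100 kb. This density rested on *Hes1*. Without it, the density of the other genes was 0.547, near that of all genes. By territory of each gene it was 2.83 at *Notch3*, 1.47 at *Notch1*, 0.965 at *Hey1*, 0.868 at *Notch2*, 0.562 at *Dll1*, 0.295 at *Jag1* and 0.231 at *Maml2*, and no peak fell in the territories of *Notch4* and *Jag2*. Within the genes themselves, from start to end, the density was 0.677 over the 10 genes and 0.924 over all protein-coding genes. The distance from the TSS to the nearest peak, whatever its assigned gene, had a median of 5.68 kb over the 10 genes and of 29.6 kb over all protein-coding genes.

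Among the other genes of the pathway, 40 of 63 had an assigned peak (63.5%, against 37.2% of all protein-coding genes). A promoter peak was present at 11 of the 63 (10.7% of all genes), and 8 had 4 or more peaks (3.17% of all genes). These genes had 104 peaks with a median score of 8.66, and 48 of them lay at or above the upper quartile of the list, as did 4037 of all 15824 peaks. A full site was present in 63 of the 104 windows (60.6%, against 51.8% of all peaks) and the RBPJ letters in 25 (24.0%, against 20.9%). Counting the 10 genes with them, the roles differed in the number of genes with a peak. It was 3 of 4 for receptors, 1 of 7 for ligands, 4 of 5 for glycosyltransferases and 5 of 10 for proteases. It was 10 of 13 for ubiquitin ligases and endocytic adaptors, 6 of 10 for the nuclear complex, 9 of 13 for corepressors and 8 of 11 for targets. The differences between roles were not tested.

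**Figure D4:**
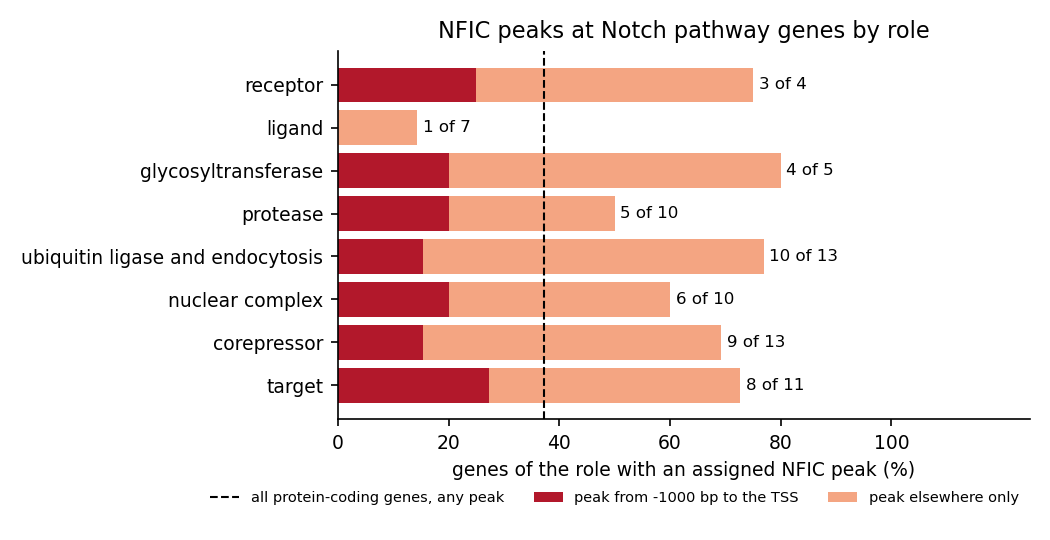
Share of the Notch pathway genes of each role with an assigned NFIC peak, in percent, with the genes that have a peak from -1000 bp to the TSS in dark red and those with peaks elsewhere only in light red. The dashed line is the share over all protein-coding genes, 37.2%. Ligands, with 1 of 7 genes, lie below it, and the other 7 roles lie above.

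Of the 8 roles, ligands had the lowest share of genes with a peak. Besides *Jag2* and *Dll1*, no peak was assigned to *Dll3*, *Dll4*, *Dlk1* or *Dlk2*. The latter pair code for non-canonical ligands, and *Dll4* for the main ligand of endothelium. The nearest peak to their TSSs lay 36983 bp away at *Dll3*, 25206 bp at *Dll4*, 142423 bp at *Dlk1* and 49416 bp at *Dlk2*.

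Glycosyltransferases add sugars to the extracellular part of the receptors and thereby tune which ligands they bind. Of the fringe genes, *Lfng* had 2 peaks in intron 1 of 7, at 2303 and 4078 bp, with scores of 11.6 and 12.0. *Mfng* had a promoter peak at -100 bp, with a score of 4.38, and a peak of 6.17 at -5243 bp. *Rfng* had 1 assigned peak, of 10.2 at 7945 bp, although a peak that did not carry its name lay 422 bp from its TSS. *Poglut1*, an O-glucosyltransferase, had no peak.

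Of the proteases, *Furin*, which cuts the receptor on its way to the membrane, had a promoter peak at -855 bp with a score of 12.5. The TSS of this *Furin* peak lies inside the gene. *Psen2*, a catalytic subunit of gamma-secretase, had promoter peaks at -110 bp and -28 bp of different TSSs, with scores of 8.37 and 5.58, and an upstream peak of 15.1 at -23495 bp. No peak was assigned to the gamma-secretase subunits *Psenen*, *Ncstn* and *Aph1a* or to the protease *Adam17*. A peak assigned to another gene nevertheless lay 3488 bp from the TSS of *Psenen*, and a peak that did not carry its name lay within *Adam17*.

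Among ubiquitin ligases and endocytic adaptors, *Neurl1b*, a ligase that acts on ligands, had the highest peaks of the role. Its 4 peaks scored 25.9, 19.7, 10.4 and 6.57, and each held a full site. The highest lay in intron 1 of 4, at 9527 bp, and was exceeded by 72 peaks of the list. *Dtx4*, of the Deltex family, had a peak of 12.7 at 245 bp. *Numbl*, a paralog of the Notch inhibitor *Numb*, had a promoter peak of 9.36 at -58 bp and a peak of 11.0 at -1262 bp. *Fbxw7*, the substrate receptor of a ligase that marks the Notch intracellular domain for degradation, had 4 peaks, and the promoter peak at -983 bp scored 3.98. *Mib2*, *Itch* and *Dtx3* had none.

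In the nuclear complex, *Maml3*, a paralog of *Maml2*, had 12 peaks, 9 of them in intron 1 of 4, with scores from 4.18 to 18.1, and 5 of the 12 held a full site. *Maml1*, like *Maml2*, had no assigned peak. *Rbpj* had a promoter peak with a score of 5.38, at -940 bp from a TSS that lies inside the gene. The window of this peak held the RBPJ letters. *Rbpjl* had 1 assigned peak, of 13.1 at -1379 bp. Another peak, which did not carry its name, lay inside *Rbpjl*, and the peak nearest to the *Rbpjl* TSS was 1133 bp away. The acetyltransferase genes *Kat2b* and *Ep300* had 7 peaks, from 4.38 to 11.0, and 2 promoter peaks, of 6.17 and 4.38. *Kat2a* and *Snw1* had none.

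Corepressors keep RBPJ targets silent and also serve other transcription factors. *Ctbp2* had 4 peaks, the highest of 18.5, and *Ctbp1* had a promoter peak of 6.97 at -200 bp. Of the Groucho family, *Tle6* had a promoter peak of 13.3, at -219 bp from a TSS that lies inside the gene. *Tle3* had a peak of 9.36 at 4134 bp, and *Tle1* had 4 peaks that reached 7.57. *Hdac2* had a peak of 10.4 at 646 bp. *Ncor1*, *Hdac1*, *Cir1* and *Tle4* had none by the authors' assignment, although a peak assigned to another gene lay 35 bp from the TSS of *Cir1*.

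The target genes had the highest median score of the 8 roles, 10.4 over 17 peaks, of which 11 lay at or above the upper quartile. All 3 HEY genes had a peak of at least 11.4. *Hey2* had a promoter peak at chr10:30842812-30842984, -115 bp from the TSS, with a score of 16.7 and 617 peaks higher. *Heyl* had 4 peaks from 6.97 to 11.4, the highest at 4487 bp. *Hes6*, which is less dependent on Notch, had a promoter peak of 12.3 at -265 bp. *Hes2*, *Hes5* and *Hes7* had no assigned peak, although a peak assigned to another gene lay 3338 bp from the TSS of *Hes5*.

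**Figure D5:**
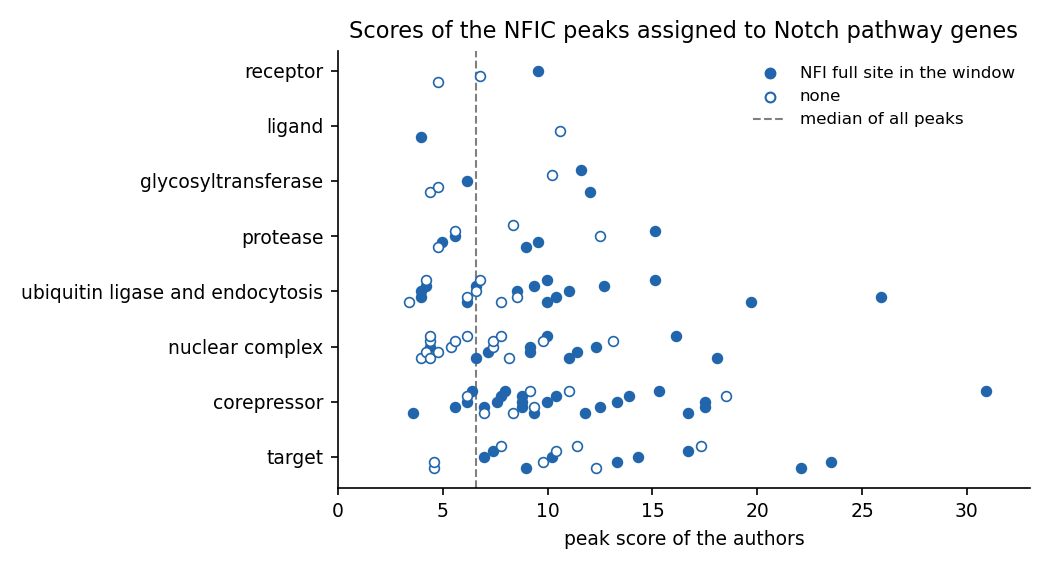
Peak scores, on the authors' scale, of the 115 NFIC peaks assigned to the 73 Notch pathway genes, by role. Each point is 1 peak, filled where its 200-bp window holds an NFI full site, and the dashed line is the median of all peaks, 6.57. The highest points of the ubiquitin ligases are *Neurl1b* peaks of 25.9 and 19.7, and those of the targets are the *Hey1* and *Hes1* peaks of 23.5 and 22.1.

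The *Hey2* promoter window, chosen after its values were seen, is shown because, like that of *Hey1*, it held a full site, with 1 mismatch at chr10:30842875-30842887, and the RBPJ letters, at chr10:30842985-30842990. These sites and a single arm are in capitals.
Hey2 promoter, chr10:30842799-30842998: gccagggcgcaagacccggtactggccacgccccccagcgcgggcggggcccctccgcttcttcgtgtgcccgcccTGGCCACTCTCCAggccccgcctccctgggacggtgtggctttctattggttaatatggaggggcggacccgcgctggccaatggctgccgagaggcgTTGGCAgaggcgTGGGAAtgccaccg
Both the full site and the RBPJ letters were present in 10.5% of all peaks and in 7.36% of the 2433 promoter peaks. Among the 123 promoter peaks that scored at least as high as that of *Hey2*, the share was 20.3%.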

How the data were processed

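NFIC ChIP-Seq was measured in 3 libraries of mouse pancreas, with 1 library of input DNA. The submitters' processing notes name BWA, Picard, MACS2 and mm10, with no versions, and the study's methods name RUbioSeq+ and HOMER, under a heading on NFIC ChIP-Seq but in a passage that opens with downloaded data of other factors. The authors deposited 1 merged list of annotated peaks, each 173 bp wide. Its peak score is the authors' own score, on a scale that is not given in the sources used here, and its focus ratio is deposited as a fraction of tags. Depth per library is unknown, so no interval or test was computed.

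Peaks were counted by the deposited gene name and distance. Sequence, transcripts and protein-coding genes (at least 1 NM transcript) came from RefSeq on GRCm38. Distances were equal for 92.6% of matched peaks and for 10 of the 11 examined in detail. The territory of a gene comprises the positions nearest to its TSS among protein-coding genes. The motif search was tested on simulated sequences, and the territory lengths on a small example worked out by hand. Alternatives varied score, promoter window, assignment, merging and motif settings. The genes, lists and rules were chosen with earlier results of these data known. Of the other pathway genes, those with a promoter peak, with 4 or more peaks, with a peak of the upper quartile within 5000 bp of the TSS, or with no peak were named. Some of these genes, and some sequences, are not reported here, but counts by role include all genes. Python 3.11.15, numpy 2.4.6, pandas 2.3.3, scipy 1.17.1 and matplotlib 3.10.9 were used.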

Additional observations from a re-analysis of the deposited data

How the results depend on the processing

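With no mismatch allowed, 1 of the 11 windows held an NFI full site, beside 13.4% of all peaks. Without *Hes1*, an alternative chosen after seeing the data, 6 assigned peaks remained, with a median score of 8.165, and the density of all peaks in the territories of the other 9 genes was 0.547 per 100 kb. The number of the 10 genes with a peak was 5 with peaks at or above the median score (21.9% of all protein-coding genes), and 6 with peaks within 50 kb (34.7%). It was also 6 by the nearest RefSeq TSS (32.3%), where *Maml2* gained a peak and *Notch3* lost its own. Under that assignment, *Hes1* had 3 peaks in place of 5, *Jag1* had 1 in place of 2, and the 10 genes had 8 in place of 11. Both promoter genes were counted under each window tried, while the share of all genes rose to 18.1% from -1000 to 1000 bp, 13.3% from -5000 bp and 14.2% by the promoter class. In windows of 400 bp, 4 of the 11 peaks held the RBPJ letters, beside 35.9% of all peaks, and 6 held a full site, beside 58.3%. Of the 63 other genes, 30 to 40 had a peak under the alternatives. Density was 0.677 within the genes themselves (0.924 over all protein-coding genes) and 0.737 with peaks at or above the median score (0.300 over all territories). No alternative could be made on replicates or input DNA, and the depth behind a missing peak is unknown.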

Other observations

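*Sox9*, which codes for a transcription factor of pancreatic progenitors and ducts and is linked to Notch there, had 1 assigned peak, with a score of 4.58 at 6383 bp. Its territory among protein-coding genes covered 1249.8 kb and held 10 peaks, or 0.800 per 100 kb. The nearest peak to *Tle4*, a corepressor gene of the Groucho family, lay 1312996 bp from its TSS.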
